A study of Mus musculus with 37 samples.

Results

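Hand1, Hand2 and the unnamed gene ENSMUSG00000100348 were followed across single mouse embryonic fibroblasts that had been given a pool of 48 factors. They are 3 of the 27999 gene rows of the deposited tables. Hand1 (ENSMUSG00000037335) and Hand2 (ENSMUSG00000038193) are both members of the pool, of which 43 factors have a row. ENSMUSG00000100348 has neither a symbol nor a position in the annotation used here. It was chosen because its counts fell in cells that also held Hand2, so that link is described below and not tested.

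The cells were embryonic fibroblasts of the ICR background, infected with retroviral vectors for the pool and collected on day 7 for Drop-seq, in which each cell's polyadenylated RNA is caught on a barcoded bead in a droplet. The labels give 37 samples, all technical replicates of 1 biological replicate in 1 group, with no untreated cells. After removal of barcode copies and the merging of replicates 4 and 6, which shared 59 barcodes, 8563 cells with 119796414 counts remained in 36 libraries. Each library held 637680 to 7921171 counts, and the median cell held 8558. Because all cells received the same pool, each comparison sets cells in which a transcript was detected against cells of the same library without it, matched on total counts. A count cannot tell a transcript from a vector from one of the cell's own gene, and a cell without a count may still carry the factor. Every p-value therefore speaks of the spread between technical libraries from the same culture. At least 2 of 7 fibroblast markers were found in 99.9% of the cells with Hand2 and in 99.7% of the matched cells.

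HAND proteins are basic helix-loop-helix transcription factors. They bind DNA at E-box sequences as dimers, most often with the broadly expressed E proteins Tcf3, Tcf4 and Tcf12, while Id proteins tie up E proteins and keep them from DNA. In the mouse, Hand1 is needed for the trophoblast and for the left ventricle. Hand2 is needed for the right ventricle, the pharyngeal arches, the posterior limb bud and sympathetic neurons. In zebrafish, hand2 is also known from the lateral plate progenitors of the mesothelium, the cell layer that lines the body cavities and gives rise to the epicardium. Hand2 is used together with Gata4, Mef2c and Tbx5 to turn fibroblasts towards cardiomyocytes.

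The coding sequences of the factors are alike enough to raise the question whether reads could be assigned to the wrong HAND gene. The stretch around their longest shared run is therefore shown. Over 624 aligned coding bases of the GENCODE transcripts, 69.9% were identical. The 90-base windows below, at coding bases 334 to 423 of Hand1 and 349 to 438 of Hand2, differed at 8 bases and were 91.1% identical. Capitals mark bases that are the same in both.
Hand1: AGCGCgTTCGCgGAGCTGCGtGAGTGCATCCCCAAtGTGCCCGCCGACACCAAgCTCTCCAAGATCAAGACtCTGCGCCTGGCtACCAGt
Hand2: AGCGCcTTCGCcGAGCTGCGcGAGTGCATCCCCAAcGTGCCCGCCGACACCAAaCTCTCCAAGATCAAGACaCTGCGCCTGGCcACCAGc
The longest run shared by the full transcripts, of 1904 bases for Hand1 and 2351 bases for Hand2, was 17 bases and lies in this window.

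In GENCODE M21 (GRCm38), Hand1 lies on the minus strand of chromosome 11 (57828705 to 57832818) and Hand2 on the plus strand of chromosome 8 (57320983 to 57324633). The antisense gene Hand2os1 runs along the minus strand of chromosome 8 from 57281117 to 57324233. Its exons cover 461 of the 2351 exonic bases of Hand2, or 19.6%. Hand2os1 has no row in the tables and the strand setting of the counting is not given in the sources used here, so antisense reads may be part of the Hand2 counts. The row of ENSMUSG00000100348 follows that of Hand2 in the tables. The 250 bases before the start of Hand2 are shown because Hand2 is set against Gata6, a factor that binds GATA motifs (RefSeq promoter table, GRCm38.p6, chr8:57320733-57320982, plus strand). Capitals mark matches to GATAA on either strand.
Hand2: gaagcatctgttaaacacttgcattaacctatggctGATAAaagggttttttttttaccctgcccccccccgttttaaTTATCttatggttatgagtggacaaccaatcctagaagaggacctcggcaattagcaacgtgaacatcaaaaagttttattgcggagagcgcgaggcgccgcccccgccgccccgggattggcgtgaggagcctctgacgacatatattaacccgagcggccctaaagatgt
The stretch holds 1 match in the forward and 1 in the reverse direction. GATAA on either strand is in 22.6% of the 32851 stretches of this length in the table. The E-box letters CANNTG have 2 matches and are found in 66.2% of these stretches.

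Hand2 was found in every library, the unnamed gene in all but 1 and Hand1 in 29 of 36. Hand2 stood at 20.2 ± 7.19 CPM (SD, n = 36 libraries), with 7.84 CPM in the lowest library, a median of 19.4 and 35.2 in the highest. The unnamed gene stood at 3.87 ± 1.64 CPM, with 0 CPM in the lowest library, a median of 3.94 and 7.63 in the highest. Hand1 stood at 1.08 ± 0.811 CPM, from 0 CPM in 7 libraries to 3.12. Over these libraries the lowest Hand2 level was above the highest level of the other two genes. CPM are counts scaled to a common total per library and are not scaled to transcript length.

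Hand2 was detected in 910 cells with 2494 counts, Hand1 in 94 cells with 139 counts and the unnamed gene in 349 cells with 470 counts. These were 10.6% of cells for Hand2 (95% exact interval 9.98 to 11.3), 1.10% for Hand1 (0.888 to 1.34) and 4.08% for the unnamed gene (3.67 to 4.52). The intervals cover counting error alone. With each cell thinned to 3000 counts, which left out 386 shallower cells, the shares were 4.28% for Hand2, 0.428% for Hand1 and 1.28% for the unnamed gene. By their names, the libraries come in the series JD, PZ47-PZ48 and PZ58, and by the level of the ribosomal gene Rps27a they fall into a high read class of 10 and a low one of 26. Hand2 stood at 21.4 ± 7.00, 19.7 ± 6.94 and 18.6 ± 9.00 CPM in these series (SD, n = 15, 15 and 6 libraries), so their means lay within the spread between libraries. The unnamed gene stood at 4.19 ± 1.52, 3.39 ± 1.59 and 4.26 ± 1.99 CPM and Hand1 at 0.926 ± 0.820, 1.20 ± 0.716 and 1.13 ± 1.08 CPM in the same order.

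**Figure D1:**
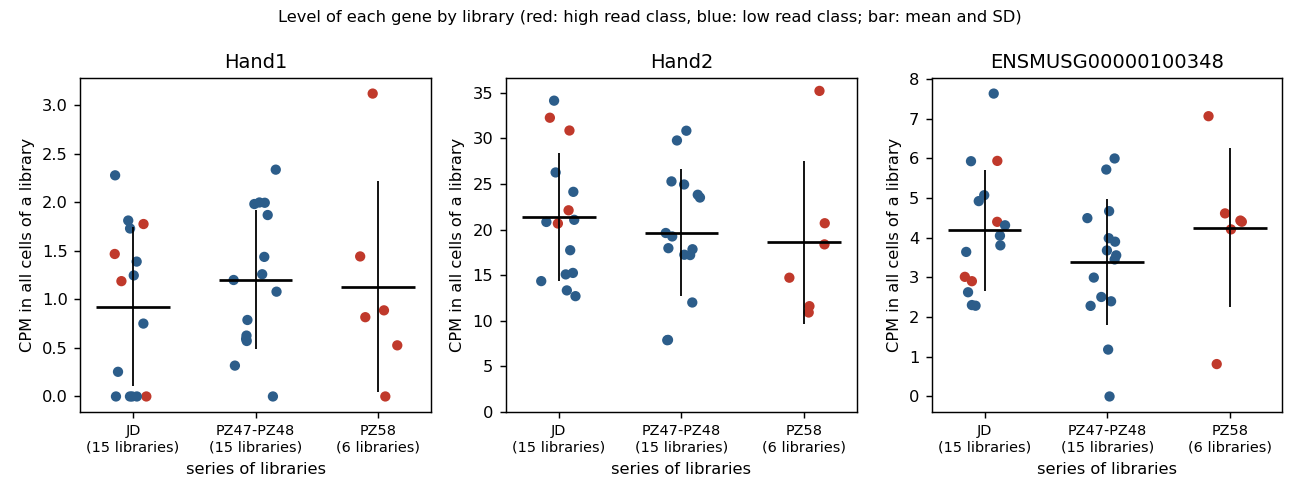
Level of Hand1, Hand2 and ENSMUSG00000100348 in CPM over all cells of a library (vertical axis), with libraries grouped by the series of their names (horizontal axis). Each point is 1 of 36 libraries, red for the 10 of the high read class and blue for the 26 of the low class, and the bar gives the mean and SD; the series overlap for all 3 genes.

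Free RNA in droplets can give counts in cells that do not express a gene, so the shares were set beside those in cells of other types. Of the 40 cells with at least 3 of 9 macrophage markers, 3 held Hand2 (7.50%, interval 1.57 to 20.4), at a median of 8430 counts per cell against 8573 in the other cells. The interval covers the share over all cells, so the Hand2 share is not told apart from this background by these cells. The unnamed gene was in 1 of the 40 cells. Hand1 was in 0 of them (interval 0 to 8.81%). Among the 235 cells with at least 4 of 9 skeletal muscle markers, 8.09% held Hand2.

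Most cells with Hand2 held few counts of it. Of the 910 cells, 474 held 1 count, 174 held 2, 134 held 3 to 4, 85 held 5 to 8 and 43 held 9 or more. These 43 cells held 27.6% of all Hand2 counts. Hand1 was in 69 cells with 1 count, 15 with 2, 7 with 3 to 4 and 3 with 5 or more. The highest count in a cell was 38 for Hand2, 6 for Hand1 and 8 for the unnamed gene.

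The cells with the most Hand2 held other pool factors. Mesp1, which sets up cardiac progenitors in the early mesoderm, was found in 8.86% of cells with 1 Hand2 count, 9.20% with 2, 22.4% with 3 to 4, 16.5% with 5 to 8 and 39.5% with 9 or more. Gata6, a zinc-finger factor of heart and endoderm, was found in 35.9%, 47.7%, 58.2%, 51.8% and 55.8% of the same classes. Depth was not matched between these classes, so the shares are descriptions. Of the 10 cells with the most Hand2 (21 to 38 counts, each from another library), 5 held Mesp1, 6 held Gata6 and 5 held Mef2c. None of the 10 held 2 mesothelial markers and 2 held the unnamed gene. The 3 cells with 5 or more Hand1 counts came from libraries 16, 29 and 32. All 3 held Mesp1 and Mef2c, none held Gata6 or the unnamed gene, and their Hand2 counts were 0, 23 and 20.

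ENSMUSG00000100348 was found in no cell without Hand2. Its 349 cells were 38.4% of the 910 cells with Hand2. Its count exceeded the Hand2 count in 0 cells and equalled it in 166. Whether a read could be counted for more than 1 gene is not given in the sources used here, so the counts of these neighbouring rows may not be separate measurements.

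The unnamed gene did not grow in step with Hand2. It was in 32.1% of cells with 1 Hand2 count, 53.4% with 2, 47.0% with 3 to 4, 38.8% with 5 to 8 and 18.6% with 9 or more. Its counts were 32.1%, 30.7%, 20.7%, 16.9% and 3.92% of the Hand2 counts in these classes, and 18.8% over all cells. By library the figure was 19.9 ± 9.22% (SD, n = 36), from 0 to 40%. Cells with 5 or more Hand2 counts were also divided by the unnamed gene. The 41 cells with it held Gata6 in 75.6%, at least 2 mesothelial markers in 61.0% and Mesp1 in 12.2% of cells. The 87 cells without it held Gata6 in 42.5%, at least 2 mesothelial markers in 11.5% and Mesp1 in 29.9%. Neither depth nor Hand2 level was matched in this split. Medians were 29920 counts and 222 CPM of Hand2 with the unnamed gene, against 22181 counts and 456 CPM without it.

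**Figure D2:**
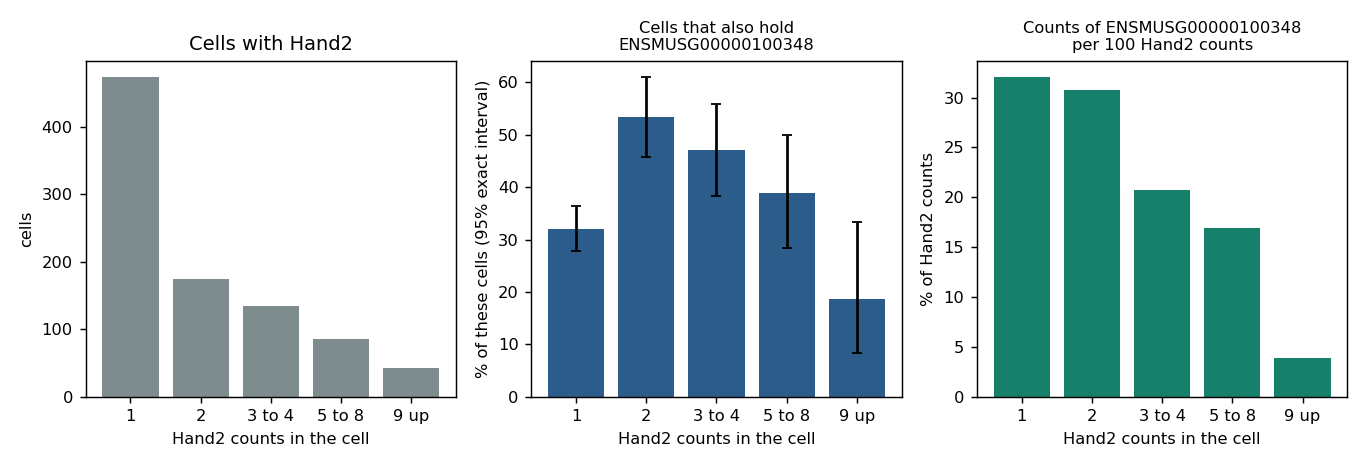
Cells with Hand2 by their number of Hand2 counts (horizontal axes). Left, number of cells; middle, percent of these cells that also hold ENSMUSG00000100348, with 95% exact intervals; right, its counts per 100 Hand2 counts, which are 32.1 in cells with 1 Hand2 count and 3.92 in cells with 9 or more.

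Hand1 and Hand2 were found together in 34 cells, which are 36.2% of the cells with Hand1 and 3.74% of those with Hand2. The 910 cells with Hand2 held 57 Hand1 counts in 3.74% of cells, against 9 counts in 0.769% of the matched cells. Hand1 was higher with Hand2 in 21 and lower in 2 of 36 libraries (log2 fold change 2.19 ± 0.44, SE; edgeR adjusted p = 0.0014). It passed the minimum of 20 counts over both sets through the cells with Hand2, so the p-value lends the difference no support of its own. DESeq2 gave 1.79 ± 0.91 with an unadjusted p of 0.0503 and no adjusted p. In this comparison 4.52% of 15038 genes were called, 3.07% as higher. By series, Hand1 had 12 counts with Hand2 against 6 (JD), 30 against 2 (PZ47-PZ48) and 15 against 1 (PZ58). Leaving out 1 library moved the pooled ratio of 6.24 to between 5.54 and 9.35, highest without library 12.

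The same cells seen from the side of Hand1 are not a separate line of evidence. The 94 cells with Hand1, in 29 libraries, held 152 Hand2 counts in 36.2% of cells, against 35 counts in 10.6% of matched cells. Hand2 was at 0 CPM in the lowest library, 52.8 at the median and 1240 in the highest in cells with Hand1, against 0, 0 and 134 CPM in matched cells. The highest value came from library 1, which held 1 cell with Hand1, while library 32 held 11. Library values for cells with Hand1, here and below, can therefore rest on 1 cell. Their SD, SE and p-values then mix the spread between cells with that between libraries. The log2 fold change was 1.99 ± 0.40 (edgeR adjusted p = 0.0019), higher in 20 and lower in 3 of 29 libraries, while 1.23% of 11602 genes were called. Hand2 was not called within any of the 3 series taken alone (log2 fold changes 1.74, 1.95 and 2.51, edgeR adjusted p = 0.72, 0.054 and 0.19). The unnamed gene had 11 counts in cells with Hand1 and 7 in matched cells, too few to be tested.

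Cells with Gata6 held more Hand2 and more of the unnamed gene. Hand2 was at 9.60 CPM in the lowest library, 27.1 at the median and 75.3 in the highest in the 2001 cells with Gata6. In the 2001 matched cells without it, Hand2 was at 0, 12.6 and 68.2 CPM. The ranges overlap. Hand2 was higher with Gata6 in 30 of 36 libraries, with means of 29.6 ± 15.6 CPM against 15.7 ± 13.6 (SD, n = 36). The log2 fold change was 1.01 ± 0.17 (edgeR adjusted p = 4.3e-05), in a comparison where 6.35% of 16292 genes were called, 4.14% higher and 2.2% lower. Hand2 was in 19.9% of the cells with Gata6 and in 9.45% of matched cells.

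The unnamed gene was at 0 CPM in the lowest library, 6.69 at the median and 13.3 in the highest in cells with Gata6, against 0, 1.94 and 8.53 CPM in matched cells. It was higher with Gata6 in 31 of 36 libraries (log2 fold change 1.51 ± 0.22, edgeR adjusted p = 2.3e-06). Since the unnamed gene is found within cells that hold Hand2, its difference is not independent of that of Hand2. Hand1 had 48 counts in cells with Gata6 and 44 in matched cells (log2 fold change 0.29 ± 0.47, edgeR adjusted p = 0.86). Of the other pool factors, Hand2 included, 3 of 41 were called higher and 1 lower, with a median log2 fold change of 0.18, against 0.01 over all genes.

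Mesothelial markers moved with Gata6. Of the mesothelial markers, 9 of 9 were called higher with Gata6. Among them, Muc16 was at 0 in matched cells and so entered the test through the cells with Gata6. Their summed level was 42.2 to 635 CPM by library in cells with Gata6 (median 249), against 15.4 to 217 CPM (median 34.3). At least 2 of the markers were in 17.9% of cells with Gata6 and in 5.80% of matched cells. Of 8 cardiomyocyte markers tested, 5 were called higher and 0 lower with Gata6. Among the 1156 cells with Gata6 that held no mesothelial marker, set against as many matched cells of the same kind, Hand2 had 459 counts against 255, a log2 fold change of 0.83 with an edgeR adjusted p of 0.07. The unnamed gene had 56 counts against 41 there, a log2 fold change of 0.48 with an edgeR adjusted p of 0.68. The Hand2 difference also missed the threshold within the series PZ47-PZ48 and PZ58, at log2 fold changes of 0.95 and 0.99 (edgeR adjusted p = 0.08 and 0.074), as did that of the unnamed gene within PZ58 (1.68, edgeR adjusted p = 0.26).

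Cells with Mesp1 held more Hand2, while no difference was called for the unnamed gene. Hand2 was at 0 CPM in the lowest library, 33.6 at the median and 194 in the highest in the 503 cells with Mesp1, against 0, 11.0 and 66.2 CPM in the 503 matched cells. It was higher with Mesp1 in 26 of 36 libraries (log2 fold change 1.58 ± 0.28, edgeR adjusted p = 0.00011), while 8.08% of 14344 genes were called, 4.7% higher and 3.38% lower. Hand2 was in 23.7% of cells with Mesp1 and in 12.5% of matched cells. The 10 highest cells held 39.0% of the Hand2 counts in cells with Mesp1. Leaving out 1 library moved the pooled ratio of 3.28 to between 2.96 and 3.72. Within the series the log2 fold change was 1.33 (JD), 2.00 (PZ47-PZ48) and 0.90 (PZ58), with edgeR adjusted p of 0.064, 0.0011 and 0.93.

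Hand1 had 51 counts in 25 cells with Mesp1, against 3 counts in 3 matched cells. It was higher with Mesp1 in 17 and lower in 3 of 36 libraries, with no Hand1 in either set of the others (log2 fold change 2.64 ± 0.52, edgeR adjusted p = 0.00073). Hand1 reached the 20-count minimum through the cells with Mesp1, so this p-value too lends no support, and DESeq2 gave 1.57 ± 2.27 with an unadjusted p of 0.49 and no adjusted p. The 10 highest cells held 68.6% of the Hand1 counts in cells with Mesp1. By series it had 15 counts against 0 (JD), 27 against 1 (PZ47-PZ48) and 9 against 2 (PZ58). The pooled ratio was 16.5, and 24.8 without library 33, which moves it by over 1.5 times. The unnamed gene had 38 counts in cells with Mesp1 and 46 in matched cells (log2 fold change -0.32 ± 0.43, edgeR adjusted p = 0.78), higher in 12 and lower in 17 libraries. Of the other pool factors, Hand1 and Hand2 included, 14 of 41 were called higher and 1 lower with Mesp1, with a median log2 fold change of 0.38, against 0.003 over all genes.

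Skeletal muscle markers were found in more of the cells with Mesp1, though none of them was called by the test. At least 2 of 9 skeletal muscle markers were in 28.2% of cells with Mesp1 and in 14.9% of matched cells, with a summed level of 27.3 to 3710 CPM by library (median 218) against 11.9 to 3991 CPM (median 58.9). All 9 muscle markers were detected in both sets. Their part in the Hand1 and Hand2 differences was not tested. At least 2 mesothelial markers were in 10.3% of cells with Mesp1 and in 9.54% of matched cells, and 0 of 9 were called. Of 7 cardiomyocyte markers tested, 2 were called higher and 0 lower with Mesp1. At least 2 of the 8 listed were in 23.3% of cells with Mesp1 and in 15.5% of matched cells. Of 5 endothelial markers tested, 0 were called higher and 2 lower.

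Cells with Mef2c, a MADS-box factor of muscle that also acts upstream of Hand2 in the heart, showed no called difference for any of the 3 genes. Hand2 was at 3.33 CPM in the lowest library, 12.8 at the median and 58.5 in the highest in the 2230 cells with Mef2c, against 4.48, 20.5 and 79.9 CPM in matched cells. It was higher with Mef2c in 15 and lower in 21 of 36 libraries (log2 fold change -0.19 ± 0.18, edgeR adjusted p = 0.70), in a comparison that called 6.21% of 16530 genes, 4.06% higher and 2.15% lower. The unnamed gene was in 4.57% of cells with Mef2c and in 5.38% of matched cells (log2 fold change -0.40 ± 0.23, edgeR adjusted p = 0.43). Hand1 had 62 counts with Mef2c and 47 in matched cells (-0.02 ± 0.70, edgeR adjusted p = 1). Markers of other cell types moved with Mef2c, 9 of 9 for skeletal muscle and 7 of 9 for macrophages being called higher. Muscle markers summed to 53.7 to 4918 CPM by library (median 930) with Mef2c, against 24.6 to 220 CPM (median 56.0). Without cells with 2 or more muscle, macrophage or glial markers the log2 fold change of Hand2 was 0.03.

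Combinations of the factors gave the following shares, as a description. Hand2 was in 34.0% of cells with Gata6 and Mesp1 but no Mef2c, in 30.3% with all of Gata6, Mesp1 and Mef2c, and in 6.97% of cells with none of them. It was in 19.1% of cells with Gata6 alone, 17.7% with Mesp1 alone and 8.35% with Mef2c alone. With Mef2c added, it was in 17.5% of cells with Gata6 and 18.6% of cells with Mesp1. Depth was not matched between these classes. Medians were 15200 counts per cell with Gata6 and Mesp1 but no Mef2c, 32839 with all of them and 7079 with none. In thinned cells the Hand2 shares of these classes were 18.2%, 11.1% and 3.14%, and pooled over cells Hand2 stood at 70.9, 35.5 and 14.5 CPM. With Mesp1 alone it stood at 48.2 CPM, above the 31.4 CPM with Gata6 alone, the reverse of their shares.

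**Figure D3:**
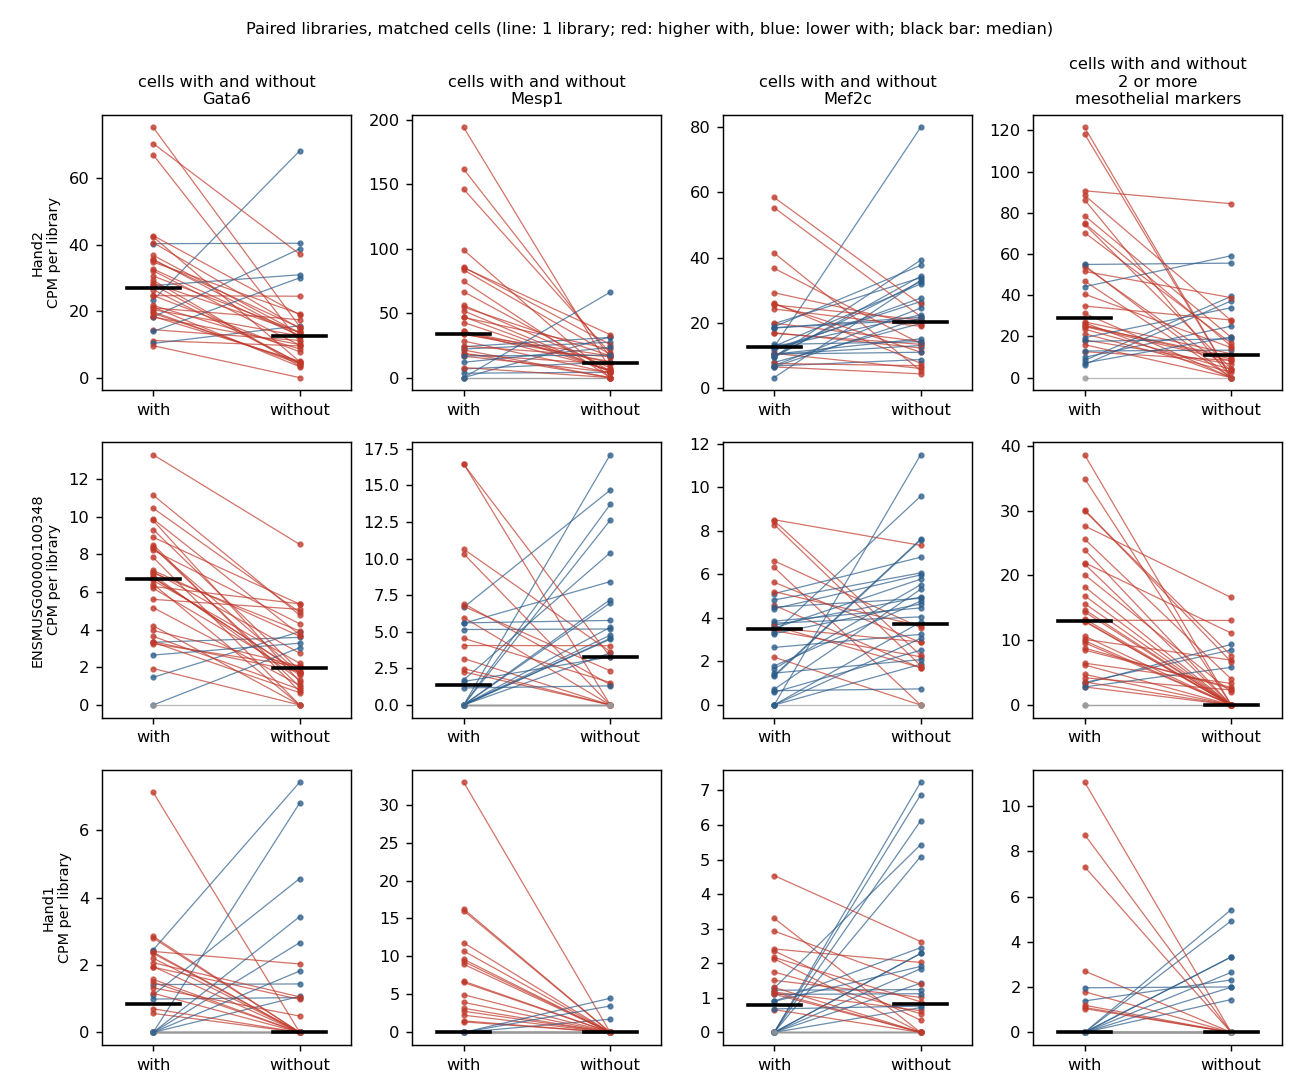
Hand2, ENSMUSG00000100348 and Hand1 in CPM per library (vertical axes) in cells with, left, and matched cells without, right, Gata6, Mesp1, Mef2c or 2 or more mesothelial markers (columns). Each line is 1 library, red where higher with, blue where lower and grey where both are 0, and the black bar is the median; with Gata6, Hand2 is higher in 30 of 36 libraries.

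Cells with mesothelial markers held more Hand2 and more of the unnamed gene, while no difference was called for Hand1. In the 625 cells with at least 2 of 9 mesothelial markers Hand2 was at 0 CPM in the lowest library, 29.1 at the median and 121 in the highest, against 0, 10.8 and 84.4 CPM in the 625 matched cells. It was higher with the markers in 26 of 36 libraries (log2 fold change 1.08 ± 0.29, edgeR adjusted p = 0.018), while 4.57% of 14738 genes were called, 3.6% higher and 0.97% lower. Hand2 was in 31.4% of these cells and in 11.4% of matched cells. The unnamed gene was at 0, 12.9 and 38.6 CPM, against 0, 0 and 16.6 CPM in matched cells. It was higher in 31 of 36 libraries (log2 fold change 1.93 ± 0.33, edgeR adjusted p = 4.1e-05) and in 17.8% of cells against 4.32%. Hand1 had 14 counts in each set (0.02 ± 0.73, edgeR adjusted p = 1).

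The Hand2 call with mesothelial markers was not made within any series alone, at log2 fold changes of 1.55 (JD), 0.97 (PZ47-PZ48) and 0.46 (PZ58; edgeR adjusted p = 0.17, 0.37 and 0.82). Its pooled ratio of 1.75 was 2.10 without the merged library of replicates 4 and 6. Of 42 pool factors tested, Hand2 included, 4 were called higher and 1 lower with these markers. Gata6 was in 359 of the 625 cells with at least 2 markers. It was in 1642 of the 7938 cells with fewer, with depth not matched. Among 261 cells with at least 2 markers and without Gata6, Hand2 had 124 counts against 57 in matched cells (log2 fold change 1.01, edgeR adjusted p = 0.52). The unnamed gene had 31 against 13 (1.20, edgeR adjusted p = 0.56). Skeletal muscle markers also moved with the mesothelial ones, with 6 of 9 called higher. They summed to 11.1 to 5153 CPM by library (median 147) in cells with mesothelial markers, against 9.92 to 1401 CPM (median 65.7), and their part in the Hand2 difference was not tested. Of 8 cardiomyocyte markers tested, 4 were called higher and 0 lower with the mesothelial ones.

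The share of cells with Hand2 increased with the number of mesothelial markers per cell. It was 7.89% in cells with none of the 9 markers, 13.4% with 1, 20.2% with 2, 33.1% with 3 to 4 and 51.4% with 5 or more. For the unnamed gene the shares were 2.35%, 5.56%, 8.16%, 20.7% and 34.1%, and for Hand1 0.963%, 1.31%, 2.72%, 0.826% and 1.16%. With counts thinned to 3000 per cell and the classes kept from full counts, Hand2 was in 3.59%, 4.09%, 5.79%, 12.6% and 21.8% of cells. The unnamed gene was then in 0.751%, 1.47%, 1.83%, 5.88% and 14.1%. The classes differed in median depth, at 7584, 12724.5, 17289, 16437 and 10571 counts per cell. Pooled over cells, Hand2 stood at 17.9, 21.2, 19.0, 34.3 and 79.9 CPM, so its level did not rise from 1 to 2 markers. By marker, Hand2 was in 43.4% of the 228 cells with Lrrn4, a membrane protein of mesothelial cells. It was in 20.0% of the 870 cells with the keratin Krt19.

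**Figure D4:**
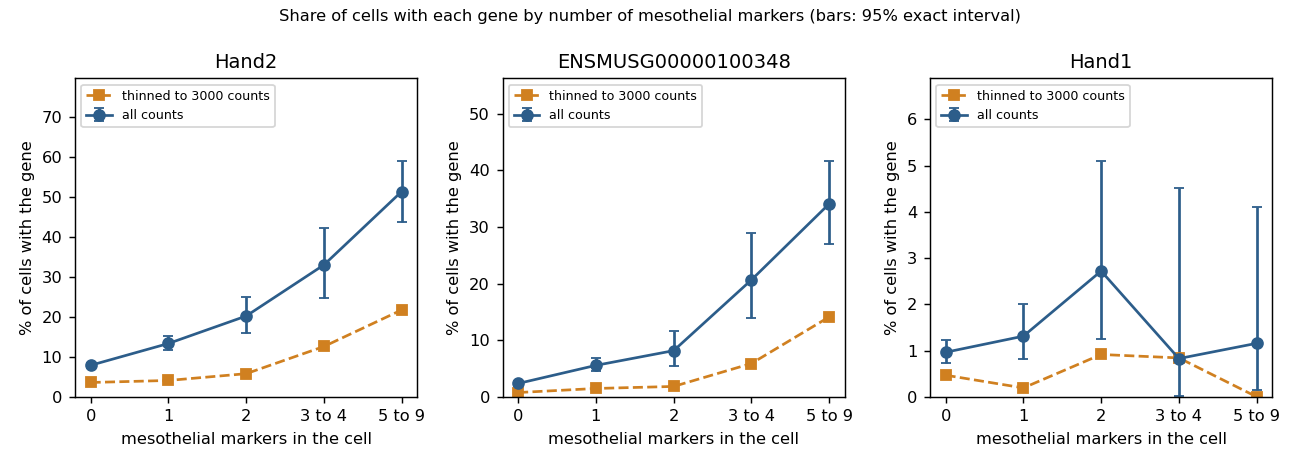
Percent of cells with Hand1, Hand2 and ENSMUSG00000100348 (vertical axes) by the number of 9 mesothelial markers detected in the cell (horizontal axes). Circles with bars give all counts with 95% exact intervals. Squares give the genes thinned to 3000 counts per cell, in classes called at full counts. Hand2 goes up to 51.4% and Hand1 stays below 3%.

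The share of cells with mesothelial markers was highest where both Gata6 and Hand2 were found. At least 2 markers were in 35.3% of the 399 cells with both Gata6 and Hand2 (interval 30.6 to 40.2). They were in 10.8% of cells with Hand2 but not Gata6, 13.6% of cells with Gata6 but not Hand2, and 3.49% of cells with neither. The interval covers counting error alone. By library the share was 36.3 ± 18.3% with both and 10.3 ± 11.2% with Hand2 only (SD, n = 36). It was 13.9 ± 4.76% with Gata6 only and 3.66 ± 1.97% with neither. In thinned cells the shares were 22.4%, 5.48%, 6.45% and 0.909%. Within the cells with both, 48.9% of those with the unnamed gene and 24.7% of those without it held at least 2 markers. These classes differ in depth, with medians of 16213 counts with both and 7621 with neither.

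The unnamed gene's counts as a share of Hand2 counts are given for 5 contexts as a description, with no test, because this measure was chosen after the data had been seen. In cells with Mesp1 the unnamed gene had 7.00 counts per 100 Hand2 counts, against 28.6 in matched cells. The cells with Mesp1 held 543 Hand2 counts, against 161 in matched cells, and the share over all cells was lower where a cell held more Hand2 counts. The part of the Hand2 level in the differences between contexts was not tested. The share was higher in 4 and lower in 19 of 27 libraries with Hand2 in both sets. Leaving out 1 library moved the difference of -21.6 percentage points to between -24.4 and -19.7. In cells with 2 or more mesothelial markers it was 33.0%, against 16.3% in matched cells, higher in 20 and lower in 6 of 27 libraries.

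In cells with Gata6 the share was 21.0%, against 13.5% in matched cells, and it was higher in 18 and lower in 17 of 35 libraries. With Mef2c it was 16.8%, against 20.9% in matched cells, but in series JD it went the other way, at 24.9% against 18.6%. With Hand1 it was 7.24%, against 20.0% in matched cells, from only 11 and 7 counts of the unnamed gene. The share with Hand1 was higher in 3 and lower in 4 of 9 libraries with Hand2 in both sets. Leaving out 1 library moved this difference of -12.8 percentage points to between -19.0 and -6.10. By number of mesothelial markers, the share over all cells was 14.0% with none, 17.3% with 1, 20.0% with 2, 32.7% with 3 to 4 and 42.7% with 5 or more. Within the series, the Mesp1 shares were 8.59% against 45.6% (JD), 7.19% against 20.0% (PZ47-PZ48) and 2.70% against 17.6% (PZ58). With 2 or more mesothelial markers they were 29.1% against 26.3% (JD), 33.5% against 12.1% (PZ47-PZ48) and 39.8% against 10% (PZ58).

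**Figure D5:**
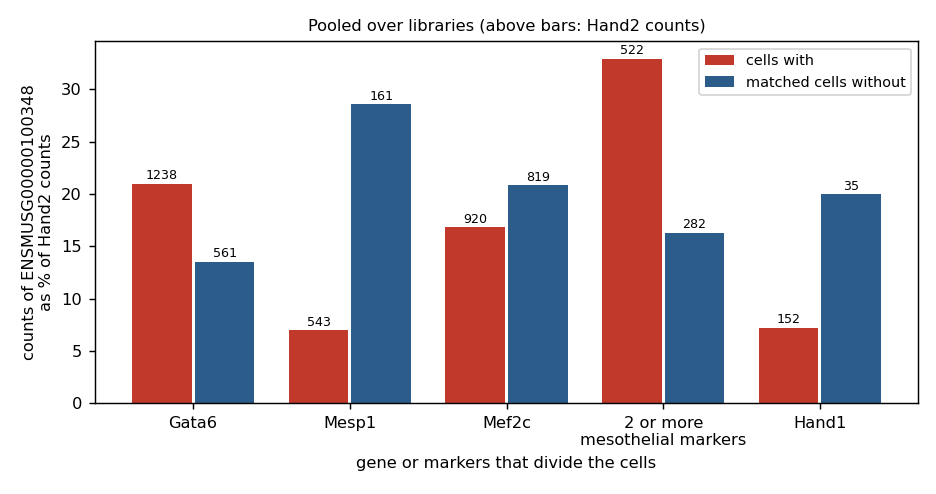
Counts of ENSMUSG00000100348 as percent of Hand2 counts (vertical axis, from 0), pooled over libraries, in cells with, red, and matched cells without, blue, the gene or markers named below the bars. Numbers above the bars are Hand2 counts; the share is 7.00% with Mesp1, against 28.6% without it.

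Cells with Hand2 held more of the mesothelial genes, less of the Id protein gene Id3 and less Mef2c, while no dimer partner was called. The test called 462 genes higher and 217 lower with Hand2 (3.07% and 1.44%). Of the mesothelial list, 8 of 9 were higher and 0 lower, with a median log2 fold change of 1.78, against -0.0009 over all genes. The uroplakin Upk3b stood at 63.0 ± 53.7 CPM with Hand2, against 10.8 ± 25.1 CPM in matched cells (SD, n = 36), higher in 31 of 36 libraries (log2 fold change 2.93 ± 0.29, edgeR adjusted p = 5.2e-10). The uroplakin Upk1b was higher by 2.69 ± 0.28 on the log2 scale (edgeR adjusted p = 1.2e-09) and Msln, the surface protein mesothelin, was likewise higher (edgeR adjusted p = 1.2e-07). The list summed to 38.7 to 878 CPM by library with Hand2 (median 309), against 3.84 to 391 CPM (median 48.4), with all 9 markers detected in both sets.

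The dimer partners of the HAND factors were not called. Tcf3, Tcf4 and Tcf12 had log2 fold changes of -0.13, -0.21 and -0.10 with Hand2 (edgeR adjusted p = 0.42, 0.086 and 0.66). Of the Id proteins, 1 of 4 was lower: Id3 stood at 483 ± 160 CPM with Hand2, against 693 ± 156 CPM in matched cells (log2 fold change -0.51 ± 0.08, edgeR adjusted p = 9e-06), lower in 28 of 36 libraries. Id1 and Id2 each had -0.24 (edgeR adjusted p = 0.19 and 0.13). Of the related Twist-family factors, 0 of 4 tested were called, among them Scx, Twist1 and Twist2, the last at 87.1 ± 27.3 CPM with Hand2, against 92.0 ± 60.2 CPM in matched cells.

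Of the genes known upstream of HAND factors, 1 of 10 tested was lower and 0 were higher with Hand2. Mef2c stood at 30.8 ± 16.9 CPM with Hand2, against 67.5 ± 70.2 CPM in matched cells (log2 fold change -0.92 ± 0.19, edgeR adjusted p = 0.00079), lower in 26 of 36 libraries. The shares of cells with Mef2c lay closer together, at 29.9% with Hand2 and 32.9% in matched cells. From the side of Mef2c, no Hand2 difference was called, as given above. The endothelin receptor Ednra had 0.56 (edgeR adjusted p = 0.10) and Gata4 0.73 (edgeR adjusted p = 0.44). Of the genes known downstream, 0 of 8 tested were called, with 1.09 for the natriuretic peptide Nppa (edgeR adjusted p = 0.29), -0.41 for the limb growth factor Fgf10 (edgeR adjusted p = 0.13) and 0.41 for the limb factor Alx4 (edgeR adjusted p = 0.57).

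Of 41 other pool factors tested, 3 were called higher and 2 lower with Hand2. Beside Hand1, which passed the count minimum as given above, the higher ones were Jazf1, a zinc-finger protein, with 0.91 ± 0.26 (edgeR adjusted p = 0.029), and Lbh, a regulator of limb and heart development, with 0.22 ± 0.07 (edgeR adjusted p = 0.044). Beside Mef2c, the lower one was the cell cycle inhibitor Cdkn1a, with -0.24 ± 0.06 (edgeR adjusted p = 0.017). Gata6 and Mesp1 themselves were not called from this side. Gata6 was in 43.8% of cells with Hand2 and in 27.3% of matched cells (log2 fold change 0.51 ± 0.18, edgeR adjusted p = 0.093). Mesp1 was in 13.1% of cells with Hand2 and in 6.48% of matched cells (0.49 ± 0.31, edgeR adjusted p = 0.50).

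With Hand2, 7 of 9 muscle markers were lower and 0 higher, with a median log2 fold change of -2.04, although 18.1% of cells with Hand2 and 17.3% of matched cells held at least 2 of them. The markers summed to 14.3 to 671 CPM by library with Hand2 (median 103), against 0 to 3863 CPM (median 231), with all 9 detected in both sets. Their part in the lower Mef2c was not tested.

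Cells with Hand1 held more Hand2 and Mef2b and less Id3 and Id1. The test called 105 genes higher and 38 lower (0.905% and 0.328% of those tested). Of 40 other pool factors tested, 3 were called higher and 0 lower: Mesp1, Hand2 and the MADS-box factor Mef2b. The median log2 fold change of the 40 was 0.36, against 0.01 over all genes, and 27 were positive. Cells with Hand1 held a median of 14 other pool factors, against 12 in matched cells. Mesp1 had 118 counts in 26.6% of cells with Hand1, against 5 counts in 3.19% of matched cells (log2 fold change 3.16 ± 0.55, edgeR adjusted p = 0.00034). Mesp1 passed the count minimum through the cells with Hand1. A single cell held 58.5% of these 118 counts, and this is the same co-detection as in the comparison of cells with Mesp1. Mef2b had 139 counts with Hand1 and 34 in matched cells (1.90 ± 0.45, edgeR adjusted p = 0.015).

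Of the Id genes, 2 of 4 were lower with Hand1. Id3 stood at 334 ± 365 CPM with Hand1, against 646 ± 418 CPM in matched cells (SD, n = 29; log2 fold change -1.26 ± 0.18, edgeR adjusted p = 1.1e-05). Id1 had -1.15 ± 0.30 (edgeR adjusted p = 0.033) and Id4 -1.46 (edgeR adjusted p = 0.34). The median over the 4 was -1.20, against 0.01 over all genes. The E proteins were not called (0 of 3), nor were the related factors (0 of 3 tested, with -0.69 for Twist2, edgeR adjusted p = 0.33). Of the upstream genes 0 of 7 tested were called, with 1.38 for Bmp2 (edgeR adjusted p = 0.45) and 1.09 for the endothelin gene Edn1 (edgeR adjusted p = 0.73), and of the downstream genes 0 of 8. The mesothelial list had 0 of 7 tested called, with a median of -0.11. At least 2 mesothelial markers were in 12.8% of cells with Hand1 and in 12.8% of matched cells.

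Cells that held Hand2 with the unnamed gene were set against cells of the same library with Hand2 and without it, in the same class of Hand2 counts. This left 260 pairs in 33 libraries, with medians of 14965 and 12115 counts per cell, so depth was not fully matched. Nor was the Hand2 level, at 106 ± 41.3 CPM with the unnamed gene, against 140 ± 70.9 CPM without it (SD, n = 33). Hand2 was lower with the unnamed gene in 28 of 33 libraries. The part of the Hand2 level in the differences below was not tested. Among 12968 genes, 104 (0.802%) were called higher and 96 (0.74%) lower, 1.54% in all. The highest were the cornified envelope gene Sprr1a (3.22 ± 0.57, edgeR adjusted p = 0.00065), the endothelial sialomucin Emcn (2.89 ± 0.48, edgeR adjusted p = 0.00019), the monooxygenase Fmo2 (2.72, edgeR adjusted p = 0.011), the peptide hormone Apela (2.59, edgeR adjusted p = 0.037) and Angptl7 (2.34, edgeR adjusted p = 0.045). These genes passed the count minimum through the cells with the unnamed gene, so they are named as a description: Sprr1a had 7 counts without it, Emcn 258 with it and 17 without, Fmo2 56 and 1, Apela 90 and 4, and Angptl7 163 and 11. A single cell held 89.0% of the Angptl7 counts in the cells with the unnamed gene.

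The lowest with the unnamed gene were the collagenase Mmp13 (-4.14 ± 0.55, edgeR adjusted p = 6.7e-06), Gm13889 (-2.73, edgeR adjusted p = 1.2e-05), the cartilage protein Comp (-2.56, edgeR adjusted p = 0.00045), the melanocyte gene Mlana (-2.50, edgeR adjusted p = 0.00065) and the myoglobin gene Mb (-2.46, edgeR adjusted p = 0.025). Mmp13 had 15 counts with the unnamed gene and 482 without it and Mb 9 and 153, so both passed the minimum through the cells without it. In the cells without the unnamed gene, 1 cell held 50.4% of the Mmp13 counts and 1 cell 75.8% of the Mb counts. Of the mesothelial list, 3 of 9 were higher and 0 lower: Bnc1 (1.68, edgeR adjusted p = 0.0071), Msln (1.46, edgeR adjusted p = 0.032) and Upk3b (1.64, edgeR adjusted p = 0.045). The list's median was 1.42, against 0.02 over all genes. At least 2 of its markers were in 29.6% of cells with the unnamed gene and in 13.1% of cells without, and their part in the other differences was not tested.

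Among the related factors, 1 of 4 tested was called higher with the unnamed gene. This was Tcf21, a factor of the epicardium and of visceral fibroblasts, named after its values had been seen, with 43 counts with the unnamed gene and 3 without. It passed the count minimum through the cells with the unnamed gene, so the call is given as a description. None of 40 pool factors tested was called. Hand1 had 10 counts with the unnamed gene and 12 without (-0.37 ± 0.61, edgeR adjusted p = 0.92).

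The genes found in the most similar cells were sought with the phi coefficient over 8563 cells, which share libraries and depth, so the values are descriptions. For Hand2, the unnamed gene came first at 0.598, followed by Tmem108 at 0.220, the ion transport regulator Fxyd6 at 0.199, Ctla2b at 0.179 and the mesothelial factor Wt1 at 0.179. Fxyd6 stood at 400 ± 239 CPM with Hand2, against 134 ± 232 CPM in matched cells (SD, n = 36). Among cells with Hand2 it was lower where the unnamed gene was found (log2 fold change -1.27 ± 0.20, edgeR adjusted p = 7.2e-05). Fxyd6 stood there at 186 ± 182 CPM, against 466 ± 382 CPM without the unnamed gene, in sets whose Hand2 level also differed. For the unnamed gene, the next after Hand2 was 5033428I22Rik at 0.200, a long noncoding RNA gene on the plus strand of chromosome 8 (57332118 to 57354580). It was in 11.5% of Hand2 cells with the unnamed gene, 2.32% of Hand2 cells without it and 0.588% of cells without Hand2. For Hand1 the highest values were 0.140 for Gm13889 and 0.137 for the chloride channel Ano1, which in counts this sparse name no partner.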

How the data were processed

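The authors deposited raw counts per gene and cell barcode, not normalized, for 37 samples. Per the submitters' processing notes the tools were STAR 2.5.3a, featureCounts 1.5.3, UMI-tools and bcl2fastq 2.17.1.14 and the build was mm10. Annotation, strand, cell filter and the treatment of reads that fit several genes are not given in the sources used here.

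Of 8730 barcodes, 89 found in more than 1 library and 78 that were 1 base from another of their library were removed. Every cell passed a minimum of 500 counts. Libraries differ in depth, and read class (by Rps27a, high in 10 and low in 26 libraries) and series of names were used as batches. No doublet caller was run. Instead, an alternative dropped the deepest 5% of each library's cells.

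A cell was called with a gene at 1 count or more, and with mesothelial markers at 2 of 9. It was matched 1 to 1, without replacement, to the cell of its library without the gene with the nearest total, in libraries with at least 3 such cells (Hand1 at least 1, the unnamed gene 2). Mean counts per cell still differed, at 20165 against 17960 for Gata6 and 21167 against 17962 for Mef2c, since the deepest cells have no equal. Counts were summed per library and compared by edgeR 4.0.16's quasi-likelihood test (limma 3.58.1, R 4.3.3), with TMM scaling, the library as a block and genes of at least 20 counts. The threshold was a Benjamini-Hochberg adjusted p of 0.05 over all genes tested, and the gene that divides the cells was left out of the counts of calls by list. The library block is the pairing, since both sets of a pair come from the same library. DESeq2 1.42.0 was an alternative. Descriptions used Python 3.11.15 with numpy 2.4.6, scipy 1.17.1 and pandas 2.3.3, exact binomial intervals at 95%, a floor of 3 counts and thinning to 3000 counts per cell. The edgeR test was run on simulated counts for the Mesp1 comparison alone. Changes were set there only in genes with more counts than Hand1 had, so the other fits and sparse genes were not checked.

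Members, lists and markers were chosen with earlier results of these data known. Named were the 3 genes in every comparison, pool factors past the threshold in the Hand2 and Hand1 comparisons (up to 8 per direction), up to 3 members per list by adjusted p, the 5 highest and 5 lowest in the comparison on the unnamed gene, and the 5 genes with the highest phi among those in at least 20 cells and at most 50% of cells, of which the first ones are given for Hand1 and the unnamed gene. Gata6 and Mesp1 in the Hand2 comparison, Fxyd6 and Tcf21 in the comparison on the unnamed gene, and the share of the unnamed gene were chosen after values had been seen. No p-value is given for that share. Sequences are from GENCODE M21 and RefSeq.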

Additional observations from a re-analysis of the deposited data

How the results depend on the processing

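Of 187 alternative values for the 3 genes, 146 kept their direction and side of the threshold, 23 lost the call and 18 changed sign. No value called in a comparison with all cells changed sign. The values that changed sign had not been called. Of 100 alternative counts of called genes, 50 stayed within 1.5 times the first count. These first counts were 1034 for Gata6, 1159 for Mesp1, 1027 for Mef2c, 673 for mesothelial markers, 679 for Hand2, 143 for Hand1 and 200 for the unnamed gene. Without the replicate block the counts were 641 for Gata6 and 300 for Hand1, and the other five stayed within 1.5 times.

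In the order Gata6, Mesp1, Mef2c, mesothelial markers, Hand2 and Hand1, the counts of called genes were 228, 198, 431, 150, 146 and 59 in series JD alone, 219, 420, 358, 211, 178 and 50 in PZ47-PZ48 (48 for the unnamed gene), and 36, 12, 102, 77, 45 and 44 in PZ58 (15 for the unnamed gene). They were 135, 92, 190, 189, 134 and 74 in the high read class (60 for the unnamed gene). In the low class they were 603 for Gata6, 673 for Mef2c, 333 for mesothelial markers, 361 for Hand2, 94 for Hand1 and 124 for the unnamed gene. These subsets hold fewer libraries. With all cells without the gene in place of matched ones they were 2774, 3382, 2053, 2460, 2364 and 3022, where depth differs between the sets. Without cells with 2 or more muscle, macrophage or glial markers they were 447 for Mesp1, 49 for Mef2c and 220 for Hand1. Without a filter on low counts they were 260 for Hand1 and 407 for the unnamed gene. At 2 counts the Hand1 comparison called 79 genes, and at 3 markers the mesothelial comparison 1013. Cells with no mesothelial marker gave 224 for Gata6, and cells without Gata6 gave 55 for mesothelial markers. Scaling by the RLE method and leaving out the merged library changed no call of the 3 genes and gave counts within 1.5 times, as did DESeq2 for the calls to which it gave an adjusted p. DESeq2 gave none for Hand1 with Hand2 (1.79, unadjusted p = 0.0503) and Hand1 with Mesp1 (1.57, unadjusted p = 0.49), which edgeR had called and which are not among the 187 values. The causes of the differences above were not tested.

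Log2 fold changes that lost the call were, for Hand2 with Gata6, 0.95 in PZ47-PZ48, 0.99 in PZ58, 0.92 in the high class and 0.83 in cells without mesothelial markers. For the unnamed gene with Gata6 they were 1.68 in PZ58, 1.41 in the high class and 0.48 without mesothelial markers. For Hand2 with Mesp1 they were 1.23 at 2 Mesp1 counts, 1.33 in JD, 0.90 in PZ58 and 1.41 in the high class. For Hand2 with mesothelial markers they were 1.55 in JD, 0.97 in PZ47-PZ48, 0.46 in PZ58, 0.85 in the high class, 1.17 in the low class and 1.01 without Gata6. For the unnamed gene with mesothelial markers they were 1.56 in JD, 2.28 in PZ58 and 1.20 without Gata6. For Hand2 with Hand1 they were 1.74 (JD), 1.95 (PZ47-PZ48) and 2.51 (PZ58).

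Values that changed sign were Hand1 with Gata6 (-0.41 in PZ58, -0.61 in the high class, -0.03 without mesothelial markers) and the unnamed gene with Mesp1 (0.05 without other cell types, 0.12 at 2 counts, 0.64 in PZ47-PZ48). Hand1 with Mef2c was 0.01 without the deepest cells, 0.05 without other cell types, 0.07 in JD, 0.51 in PZ58, 0.61 in the high class and 0.15 with all cells. With Mef2c, Hand2 was 0.03 without other cell types and the unnamed gene 0.27 in JD. Hand1 with mesothelial markers was -0.13 without the deepest cells, -0.14 without other cell types, -0.06 in the low class and -0.32 with all cells. Thinning gave shares of 4.28% for Hand2 and 1.28% for the unnamed gene. At 2 counts of each, the unnamed gene was in 0% of Hand1 cells and 17.7% of Hand2 cells. Hand1, with 139 counts, limits every comparison that rests on it. Members under 20 counts in a subset were not tested.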

Other observations

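Genes with small adjusted p-values in cells with Hand1 are given here as a description, since they were chosen after their values had been seen. Ano1, a calcium-activated chloride channel, stood at 93.3 ± 97.4 CPM in cells with Hand1 against 5.36 ± 10.8 CPM in matched cells (SD, n = 29 libraries; log2 fold change 3.40). Fxyd6 stood at 510 ± 390 CPM with Hand1, against 122 ± 230 CPM in matched cells (2.62), the selenium carrier Selenop at 284 ± 221 CPM with Hand1, against 56.4 ± 68.3 CPM (2.08), and the myelin protein gene Pmp22 at 517 ± 527 CPM with Hand1, against 176 ± 166 CPM (1.65). Erv3, an endogenous retroviral gene, had 613 counts in cells with Hand1 and 0 in matched cells, at least 199-fold higher against a floor of 3 counts over the group. These counts lay in only 8 cells, or 8.51% of the cells with Hand1, and 1 cell held 48.0% of them. In 21 of 29 libraries the cells with Hand1 held no Erv3. Erv3 and Ano1, with 13 counts in matched cells, passed the minimum of 20 counts through the cells with Hand1.

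On the lower side with Hand1 were the collagen crosslinking enzyme Lox, at 916 ± 669 CPM in cells with Hand1 against 1917 ± 979 CPM in matched cells (-1.08), the protocadherin Pcdh19, at 38.5 ± 50.4 CPM with Hand1, against 132 ± 81.5 CPM (-1.77), the collagen gene Col8a1, at 394 ± 617 CPM with Hand1, against 908 ± 784 CPM (-1.54), and the mesenchymal homeobox gene Prrx2, at 18.0 ± 25.3 CPM with Hand1, against 101 ± 148 CPM (-1.85).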
